A study of Homo sapiens with 5 samples.

Results

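The comparison described here sets H1 cells treated with IWP2 and LY294002 together against H1 cells treated with LY294002 alone. H1 is an established line of human embryonic stem cells. Both groups went through mesoderm induction with CHIR99021, which activates WNT signalling by inhibiting GSK3. The inhibitors were present from day 2 to day 5 and RNA was taken on day 10, so the arrays read the cells 5 days after the inhibitors were withdrawn. IWP2 blocks Porcupine, the enzyme that attaches the lipid WNT proteins need for their secretion, and LY294002 inhibits phosphoinositide 3-kinase (PI3K). The comparison was chosen by treatment label and holds 2 of the 5 arrays of the study. The other 3 arrays are of cells in the basal differentiation medium (control), with IWP2 alone and with insulin. All 5 carry the same CHIR99021 induction. Each treatment has 1 array of total RNA from 1 cell line, so no difference could be set against a spread between replicates, and no p-value is given.

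WNT proteins act through Frizzled receptors and LRP co-receptors to stabilise beta-catenin, which enters the nucleus and works with TCF/LEF factors on target genes. In embryonic stem cells that have formed mesoderm, WNT activity first drives mesoderm formation and later opposes the cardiac fate, and inhibitors of WNT secretion are a usual step in making cardiomyocytes. PI3K passes on signals of insulin and the insulin-like growth factors (IGFs) to AKT, which holds FOXO transcription factors out of the nucleus and promotes growth.

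Cells that received IWP2 with LY294002 had lower signals of limb and lateral plate patterning genes, of collagens and other matrix genes, of liver genes and of genes of cell division than cells that received LY294002 alone. Heart muscle genes were split: 7 sarcomere genes and the calcium release channel gene RYR2 were higher, while myoglobin (MB), WNT2, IRX5 and the atrial calcium pump regulator sarcolipin (SLN) were lower. Of the WNT pathway itself, AXIN2, the feedback gene most often used as a readout of WNT activity, differed little, whereas the secreted WNT antagonist DKK1 was far lower. Signals are log2 intensities after background correction and quantile normalization, and a difference is always the array with both inhibitors minus the array with LY294002 alone. A gene was taken as detected on an array when its detection p-value, the share of negative control probes at or above its intensity, lay under 0.01.

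Of 20041 genes with a named probe, 7691 were detected on both arrays. Of these, 455 were at least 2-fold higher with both inhibitors, which is 5.92%, and 336 were at least 2-fold lower, which is 4.37%. Together that is 10.3% of the genes detected on both arrays. The counts within lists below are to be read against these shares. A list count close to them is no result about that list. The larger differences ran downwards: 31 genes were at least 4-fold lower and 9 were at least 4-fold higher. The median difference was -0.00 and 60.9% of the genes lay within 0.5 of it. Scaling each array to its 75th percentile in place of quantile normalization moved the median gene by 0.18 and gave 815 genes higher and 179 lower, so the share of calls that were higher went from 57.5% to 82.0%. A further 942 genes were detected only with both inhibitors (10% of 9384 genes detected on either array) and 751 only with LY294002 (8%). For these genes a difference has only a bound, computed against the lowest detected signal of the dimmer array.

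The position of these genes among the 5 arrays is given as a description, since choosing genes by a difference between 2 arrays favours extreme ranks of those arrays. Of the 336 lower genes, 83.0% read lowest of the 5 with both inhibitors, and their median difference from the control array was -1.36. Of the 455 higher genes, 68.8% read highest of the 5 with both inhibitors, and for 52.1% the LY294002 array was the lowest of the 5. The LY294002 array was also the dimmest, with a 95th percentile of intensity of 469.7 where the others ran from 674.7 to 815.3, and it had the fewest detected genes (8442, and 8633 with both inhibitors). The part of this dimness in the higher genes was not tested.

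The identity of the cells was read from defining markers. POU5F1 and NANOG, factors of the pluripotent state, were not detected on either array, although H1 is labelled as embryonic stem cells. Other genes tied to that state were detected: LIN28A read 8.53 with LY294002 and 8.23 with both inhibitors, and DNMT3B 6.55 and 6.75. The pluripotency list had 11 detected members, 6 negative and 5 positive. Of the 7 detected on both arrays, 1 passed 2-fold: PODXL, at 10.11 with LY294002 and 7.88 with both inhibitors. ZFP42 and DPPA4 were detected only with LY294002, at least 4.92-fold and at least 1.47-fold lower with both inhibitors. SOX2 was detected only with both inhibitors, at 5.94. The cardiac myosin gene MYH6 read 13.07 with LY294002 and 14.05 with both inhibitors, and the cardiac actin gene ACTC1 read 13.00 and 13.37. MYH7, another cardiac myosin gene, read 7.77 and 8.65. The cardiac homeobox gene NKX2-5 read 9.58 and 9.18, and the myosin light chain gene MYL7 read 13.81 and 13.60. AFP, alpha-fetoprotein of the fetal liver and yolk sac, read 10.52 and 8.89, while ALB, albumin, was detected on neither array. In RNA from a mixed culture, fewer cells of a type and less RNA per cell cannot be told apart.

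**Figure D1:**
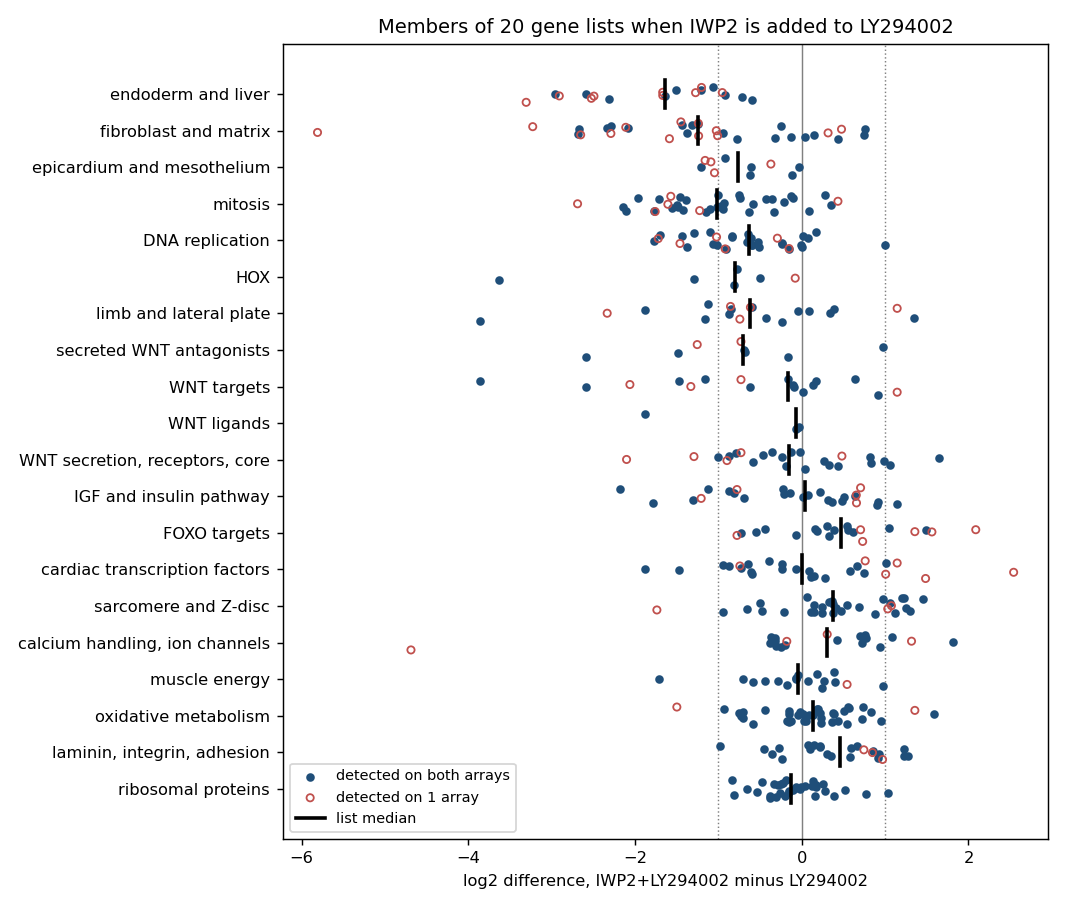
Each point is a gene of 1 of 20 lists, placed by its log2 difference between the array with both inhibitors and the LY294002 array; filled points were detected on both arrays, open points on 1 (their measured difference is drawn), the black bar is the list median and dotted lines mark 2-fold. The endoderm and liver list lies wholly below 0 with a median of -1.64, the matrix and mitosis lists mostly below it, and the sarcomere list mostly above it with a median of 0.37.

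The WNT pathway was examined first because IWP2 acts on it, by its ligands, the proteins that carry and receive them, the secreted antagonists and the targets. Of 19 WNT ligand genes, 4 were detected on either array, and 3 of these hardly differed: WNT5A by -0.06, WNT5B by -0.04 and WNT11 by -0.07. WNT2, a ligand made in the early heart field, read 5.77 in the control, 7.70 with IWP2, 9.35 with LY294002, 7.47 with both inhibitors, and was not detected with insulin. It was thus highest with LY294002 and 3.68-fold lower once IWP2 was added.

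Of 24 detected genes for WNT secretion, receptors and signal transduction, 19 were measured on both arrays, with 2 of them past 2-fold upwards and 1 downwards. The median over the 24 was -0.16, and its sign turned under some settings. LGR4, a receptor for R-spondins, which amplify WNT signals, read 5.73 with LY294002 and 7.38 with both inhibitors (3.12-fold higher). The other arrays lay between at 6.28 in the control, 7.05 with IWP2 and 6.31 with insulin, so the LY294002 array was the lowest. The receptor gene FZD4 was higher by 1.06, and FZD6 by 0.99. The receptor gene FZD2 was lower, at 7.88 with LY294002 and 6.88 with both inhibitors. RSPO2, an R-spondin, and ROR1, a receptor for WNT5A, were detected with LY294002 and not with both inhibitors, at least 2.10-fold and at least 2.17-fold lower. RSPO3, the other detected R-spondin, went the other way by 0.83. WLS, the protein that escorts WNTs to the cell surface, differed by -0.12, beta-catenin (CTNNB1) by 0.33 and GSK3B by 0.04. Second detected probes gave -0.55 for WLS and -0.03 for CTNNB1.

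Among the secreted antagonists, 2 of the 6 detected on both arrays were lower and none was higher, beside 4.37% lower over all genes. The median was -0.71 over 8 detected members. DKK1, which blocks the LRP co-receptors, read 9.81 in the control, 9.95 with IWP2, 10.19 with LY294002, 9.80 with insulin and 7.61 with both inhibitors. The first 4 arrays thus lay within 0.4 of each other and only the array with both inhibitors stood apart, 5.99-fold below LY294002. FRZB, a Frizzled-related protein that binds WNTs, read 8.27 with LY294002 and 6.79 with both inhibitors, and its control value was 10.82. SFRP1, of the same family, was higher by 0.97.

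The WNT target list had 17 detected members and a median of -0.16. Of its 13 members detected on both arrays, 4 were lower: MSX1, DKK1, CCND1 and MSX2. The feedback genes were not alike. AXIN2 read 7.85 with LY294002 and 7.74 with both inhibitors, and ZNRF3, which removes Frizzled from the surface, 5.93 and 5.94. LEF1, a nuclear partner of beta-catenin, read 9.34 and 8.71, but a second detected probe for it gave a difference of -0.005. NOTUM, which strips the lipid from WNTs, was detected only with LY294002, at least 1.09-fold higher there. The targets APCDD1, a membrane inhibitor of the pathway, and CD44, an adhesion receptor, were detected with LY294002 and not with both inhibitors, at least 2.88-fold and at least 2.37-fold lower. CCND1, the cyclin that drives cells into the division cycle, read 8.99 and 7.52. TCF4, an E-protein gene counted as a target, and FGF9, a growth factor, were on the other side, by 0.92 and 0.64. TBX3, a T-box factor, was detected only with both inhibitors, at least 2.10-fold higher. The letters CTTTGAT, a TCF/LEF motif searched on both strands, stood in none (0) of the 11 RefSeq promoter windows available for this list. The share was 2.64% of all 27305 windows and 1.38% of 6292 genes detected on both arrays. With shares this low, 11 windows are too few for the 0 to say anything about the list.

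Patterning genes held several of the largest differences. MSX1, a homeobox gene of limb bud and other mesenchyme, read 11.57 in the control, 9.30 with IWP2, 10.64 with LY294002, 11.46 with insulin and 6.78 with both inhibitors. It was 14.6-fold lower once IWP2 was added to LY294002. HOXB5, a gene of the trunk HOX code, read 10.12, 7.34, 9.10, 10.17 and 5.46 in the same order of arrays. The last value lies at the lowest detected signal of that array, and the difference from LY294002 was -3.63. All 6 detected HOX genes were lower in value (median -0.80), with HOXB4 lower by 1.29 and HOXB2 by 0.82. For HOXB5 and HOXB4 IWP2 alone already lay below the control, with HOXB4 at 7.43 in the control and 5.53 with IWP2.

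Of 19 detected limb and lateral plate genes, 4 of the 14 detected on both arrays were lower and 1 was higher (median -0.62). Over all genes 4.37% were lower and 5.92% higher. MSX2, related to MSX1, was lower by 1.16, TWIST1, a factor of mesenchyme, by 1.13, and IRX5 by 1.88. PITX1, the hindlimb identity factor, read 7.08 with LY294002 and was not detected with both inhibitors, at least 3.08-fold lower. ALX1, a homeobox gene of craniofacial mesenchyme, was the 1 higher gene, at 6.27 with LY294002 and 7.61 with both inhibitors, and TBX3 was detected only with both. The ALX1 value with both inhibitors was the highest of the 5 arrays. The transcription factor gene MYCN, active in embryonic progenitors, was lower by 2.60, from 8.81 to 6.21, and its other 3 arrays read between 8.41 and 9.82.

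Cell division genes were lower as a group. Of 37 detected genes of mitosis, 31 were measured on both arrays, and 15 of these passed 2-fold downwards and none (0) upwards, beside 4.37% lower over all genes. The median over the 37 was -1.02, and 33 of them were negative. CDC20, which turns on the anaphase-promoting complex, read 9.61 in the control, 8.89 with IWP2, 9.39 with LY294002, 9.80 with insulin and 7.25 with both inhibitors. PTTG1, the securin that holds sister chromatids together, read 10.84, 10.20, 11.09, 10.38 and 8.99. A second detected probe for PTTG1 gave -0.70. KIF20A, a kinesin of cytokinesis, was lower by 1.96, and the kinase gene AURKB was not detected with both inhibitors, at least 3.68-fold lower than with LY294002. In these 4 genes the first 4 arrays lay within 1.0 of each other and the array with both inhibitors lay below all of them. BUB1B, of the spindle checkpoint and named after its value was seen, ran the other way: it was detected only with both inhibitors, at least 1.27-fold higher.

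Genes of DNA replication moved less. Of 34 detected, 8 of the 28 detected on both arrays were lower and none (0) was 2-fold higher (median -0.64). CDC45, a subunit of the replicative helicase, read 7.67 with LY294002 and 5.90 with both inhibitors. GINS2, of the same helicase, read 8.13 and 6.43, and MCM7, another subunit, 9.53 and 8.08. Of 14 detected cell cycle inhibitor and p53 target genes, 1 of the 13 detected on both arrays was lower and none (0) was higher (median -0.39), with 5 of the 14 positive. CDKN1A, encoding p21, was that gene, at -1.07, while CDKN1C, encoding p57, differed by -0.94. SESN1, in this list too, was detected only with both inhibitors.

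Many mitosis genes carry the cell cycle genes homology region (CHR), the letters TTTGAA, in their promoters, where complexes of MuvB proteins bind. RefSeq promoter windows from 250 bases before to 50 after the start (GRCh38.p14) were available for 31 of the 37 genes, and 22 of these held TTTGAA on 1 strand or the other (71.0%). The share was 9.84% of 6292 genes detected on both arrays, 15.4% of all 27305 windows and 3.23% (1 of 31) of the DNA replication list. The 200 bases before the start are printed for CDC20, PLK1 and CENPA, the 3 mitosis genes with the largest differences among those with a match in that stretch. They show how near to the start the letters lie, and PLK1 and CENPA were named after their values were seen. Capitals mark TTTGAA or its reverse complement.
CDC20, chr1:43358781-43358980, plus strand: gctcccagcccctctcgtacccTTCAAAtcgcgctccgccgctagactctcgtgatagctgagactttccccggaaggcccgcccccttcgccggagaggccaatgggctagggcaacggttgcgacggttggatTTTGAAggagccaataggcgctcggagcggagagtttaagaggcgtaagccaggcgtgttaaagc
PLK1, chr16:23678689-23678888, plus strand: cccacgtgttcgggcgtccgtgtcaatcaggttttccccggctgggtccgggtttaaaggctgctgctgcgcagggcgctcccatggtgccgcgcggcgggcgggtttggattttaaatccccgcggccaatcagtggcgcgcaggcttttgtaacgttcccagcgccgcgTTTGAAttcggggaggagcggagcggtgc
CENPA, chr2:26785856-26786055, plus strand: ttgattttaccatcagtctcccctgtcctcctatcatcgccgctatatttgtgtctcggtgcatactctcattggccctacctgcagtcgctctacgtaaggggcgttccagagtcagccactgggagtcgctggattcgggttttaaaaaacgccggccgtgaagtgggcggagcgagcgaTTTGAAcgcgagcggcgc
CDC20 has 2 matches, 178 and 65 bases before the start, PLK1 has 1 at 29 bases and CENPA 1 at 18 bases. The kinase gene PLK1 and the centromeric histone gene CENPA were detected with LY294002 and not with both inhibitors, at least 1.84-fold and at least 2.91-fold lower. Within the mitosis list the match did not order the differences: the median was -1.03 over the 22 genes with a match and -1.15 over the 9 without one. Over all 262 lower genes with a window the share with a match was 13.4%, and 10.8% once the mitosis list was left out, the same as the 10.8% of the 379 higher genes.

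Matrix genes were lower as well. Of 32 detected fibroblast and matrix genes, 9 of the 19 detected on both arrays were lower and none (0) was higher. A further 11 were detected only with LY294002. The median was -1.24 over the 32 and -0.94 over the 19. LUM, lumican, a proteoglycan of collagen fibrils, read 12.57 in the control, 10.67 with IWP2, 10.40 with LY294002, 12.26 with insulin, and was not detected with both inhibitors. That is at least 30.7-fold lower than with LY294002, the largest bound of the comparison. COL1A1, a chain of type I collagen, read 11.51, 9.97, 9.73, 11.76 and 7.07 in the same order. Each inhibitor alone thus lay below control and insulin, and the array with both lay lowest, 6.36-fold below LY294002. COL3A1, of type III collagen, was lower by 2.34, COL5A2, of type V, by 2.68, and DCN, decorin, at least 5.32-fold. COL6A3, of type VI collagen, and TGFBI, an adhesive matrix protein induced by TGF-beta, were at least 4.98-fold and at least 3.09-fold lower. Matrix genes did not all share this: VCAN, versican, and NID2, nidogen 2, both named after their values were seen, read 0.76 and 0.75 higher.

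Markers of other mesodermal linings and of the wall of vessels had fewer detected members. All 10 detected epicardial and mesothelial genes were lower in value (median -0.77), but 4 of them entered by detection with LY294002 only. Over the 6 detected on both arrays the median was -0.61, with 1 past 2-fold. That was ALDH1A1, which makes retinoic acid, at 7.10 with LY294002 and 5.89 with both inhibitors. WT1, the defining epicardial factor, read 5.92 with LY294002 and was not detected with both inhibitors, at least 1.37-fold lower. Of 24 endothelial genes, 3 were detected: the receptor genes TEK (lower by 1.44) and KDR (higher by 0.57) and NOS3, the endothelial nitric oxide synthase, detected only with LY294002. The 11 smooth muscle genes had a median of -0.52 and none (0) of 8 past 2-fold. That median turned to 0.05 without the detection filter. GAP43, a growth cone protein of neurons, read 8.18 with LY294002 and was not detected with both inhibitors, at least 6.61-fold lower, but its IWP2 value was 5.67. NES, nestin, was higher, from 7.97 to 9.54.

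Liver genes were low with LY294002 already and lower still with both inhibitors. All 19 detected endoderm and liver genes were lower in value (median -1.64), but 9 of them entered by detection with LY294002 only. All 10 detected on both arrays were lower too, with a median of -1.36, and 7 of them passed 2-fold. TTR, the carrier of thyroid hormone and retinol, read 13.93 in the control, 12.71 with IWP2, 10.25 with LY294002, 14.36 with insulin and 7.28 with both inhibitors. SERPINA1, alpha-1 antitrypsin, read 12.46, 10.34, 8.16, 13.03 and 5.57 in the same order. In both genes the 5 arrays kept 1 order, with insulin highest, then control, IWP2, LY294002 and both inhibitors. Genes of 3 plasma proteins were detected with LY294002 only: APOA4, an apolipoprotein, at least 6.37-fold lower, RBP4, the retinol carrier, at least 4.76-fold and AHSG, fetuin A, at least 3.25-fold. Measured against the control rather than LY294002, the list's median with LY294002 alone was -4.30, and with IWP2 alone -2.12. The epithelial list, which shares keratin genes with the epicardial one, had 7 detected members, all lower in value, with a median of -0.74. None (0) of the 6 detected on both arrays passed 2-fold. RAB25, an epithelial trafficking GTPase, was lower by 0.94 and KRT8, keratin 8, by 0.92, while EPCAM and SPINT2 differed by -0.09 and -0.17. Under the alternative settings the list median ran from -0.77 to -0.05.

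**Figure D2:**
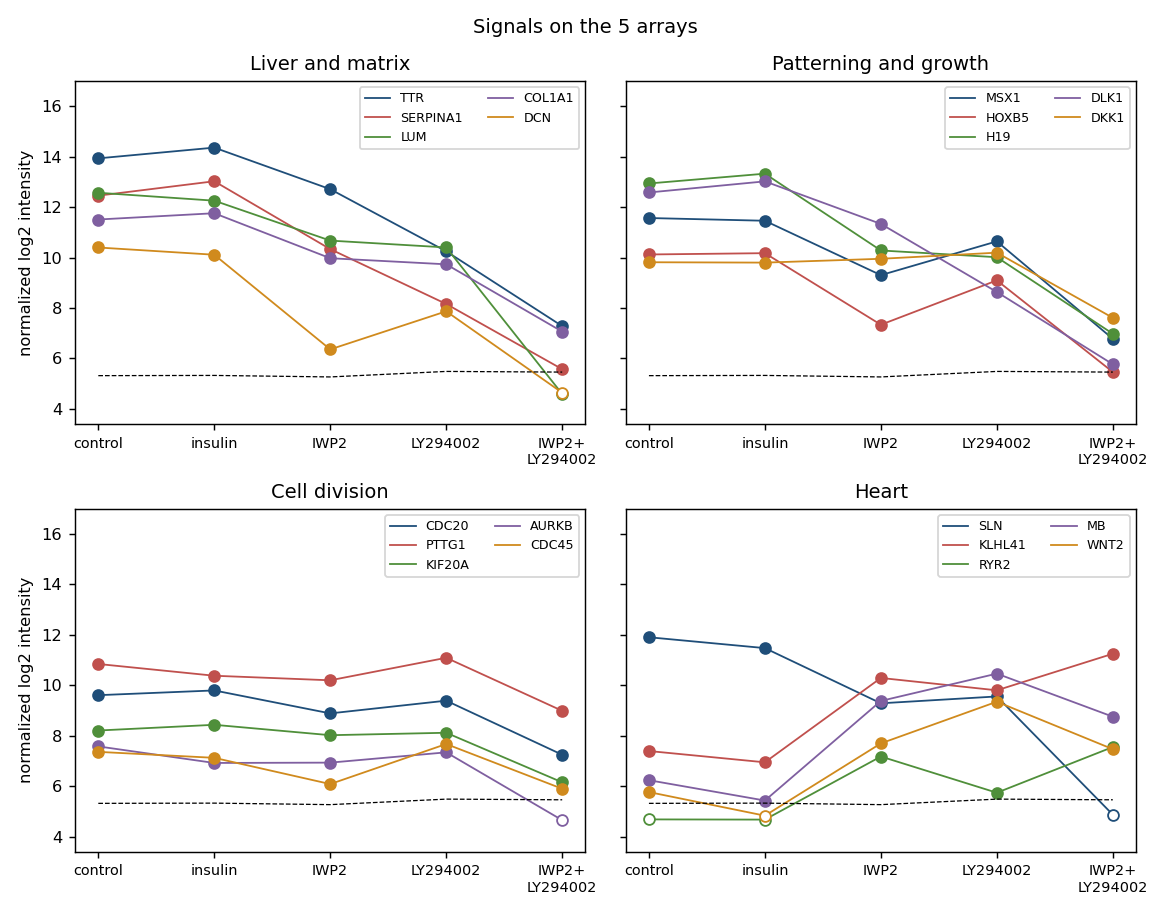
Normalized log2 intensities of 20 genes on the 5 arrays, 1 array a treatment; open circles were not detected, the dashed line is the lowest detected signal of each array, and lines only join the points of a gene. TTR falls from 10.25 with LY294002 to 7.28 with both inhibitors, DKK1 and CDC20 leave their level on the array with both inhibitors alone, and KLHL41 and RYR2 are highest there while MB and WNT2 are highest with LY294002.

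Growth factor genes were examined because LY294002 acts below IGF and insulin receptors. Of 26 detected genes of the IGF and insulin pathway, 4 of 21 detected on both arrays were lower and 1 was higher (median 0.04). The 4 were the IGF binding protein genes IGFBP3, IGFBP2 and IGFBP5, and EIF4EBP1, the translation repressor under mTOR. IGFBP3 read 10.84 in the control, 8.59 with IWP2, 8.66 with LY294002, 12.23 with insulin and 6.48 with both inhibitors, and its second probe gave -2.52. IGFBP2 read between 7.95 and 8.32 on the other 4 arrays and 6.54 with both inhibitors. IGF2R, which takes up IGF2 and degrades it, was higher, from 7.44 to 8.58, and its LY294002 value was the lowest of the 5. Imprinted growth genes held large differences: H19, a long RNA transcribed beside IGF2, read 12.94, 10.28, 10.01, 13.33 and 6.98 in the order control, IWP2, LY294002, insulin and both. DLK1, a membrane protein of fetal progenitors, read 12.58, 11.33, 8.64, 13.02 and 5.77. Across the 14 detected imprinted genes, 3 of 13 were lower and 1 was higher.

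FOXO targets, the genes released when PI3K is blocked, had a median of 0.47 over 20 detected members, with 2 of 14 higher and none (0) lower. Over the 14 detected on both arrays the median was 0.32, and 5 of the 20 entered by detection with both inhibitors only. Measured against the control, the list's median with LY294002 alone was -0.87. SESN1, sestrin 1, was detected only with both inhibitors, at least 3.80-fold higher. TXNIP, a thioredoxin inhibitor, read 10.13 with LY294002 and 11.18 with both inhibitors, and CAT, catalase, 7.05 and 8.54. A second detected probe for CAT gave 0.02. The LY294002 array was the lowest of the 5 for 10 of these 20 genes, so these differences were measured from a low point. Of the genes of the TGF-beta and bone morphogenetic protein (BMP) families, 4 of 18 were higher and none (0) was lower, all 4 of them ligand genes: TGFB2, BMP2, TGFB3 and BMP5. TGFB2 read 5.87, 7.35, 7.28, 6.31 and 9.16, highest with both inhibitors, and BMP2 read 8.55 with LY294002 and 9.78 with both inhibitors. On the other side were ID1, a direct target of BMP signals, at -0.93, and TGFBI, the TGF-beta-induced matrix gene described above, at least 3.09-fold lower. In the FGF, PDGF and Hedgehog group 2 of 15 were higher, PDGFC (1.27) and FGF13 (1.04), beside 5.92% higher over all genes. SPRY4, a feedback inhibitor of FGF signals, was detected only with both inhibitors, at least 3.50-fold higher.

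The heart genes were split, also within single lists. Of 31 detected sarcomere and Z-disc genes, 7 of the 28 detected on both arrays were higher and none (0) was lower, beside 5.92% higher over all genes (median 0.37). KLHL41, which steadies thin filaments, read 7.39 in the control, 10.29 with IWP2, 9.80 with LY294002, 6.95 with insulin and 11.25 with both inhibitors. NEXN, a Z-disc actin-binding protein, was higher by 1.30, MYOM1, of the M-band, by 1.25, NEBL, nebulette, by 1.22 and TRIM55, a muscle ubiquitin ligase, by 1.21. Second probes gave 0.62 for KLHL41, 2.15 for NEBL and 2.11 for TRIM55. The chamber myosins differed less: MYH6 by 0.97, MYH7 by 0.88 and MYL7 by -0.21. TNNI3K, a cardiac kinase, ran the other way: it was detected with LY294002 and not with both inhibitors, at least 2.19-fold lower. The 7 higher members had a median genomic span of 62.1 kb and the 21 within 2-fold 22.9 kb.

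In the calcium handling and ion channel list, 2 of 15 were higher and none (0) was lower, beside 5.92% higher over all genes. The median was 0.31 over 19 detected members, or -0.01 with undetected values at their bounds. RYR2, the calcium release channel, read 5.74 with LY294002, 7.18 with IWP2 and 7.55 with both inhibitors, and was not detected in control or insulin. SLC8A1, the sodium-calcium exchanger, read 7.33 with LY294002 and 8.41 with both inhibitors. SLN ran against these: it read 11.90, 9.29, 9.56 and 11.47 in control, IWP2, LY294002 and insulin and was not detected with both inhibitors, at least 17.1-fold lower than with LY294002. Its levels were thus highest on the 2 arrays where RYR2 was not detected. The 2 higher members of the calcium list, RYR2 and SLC8A1, had a median genomic span of 603.5 kb and the 13 within 2-fold 33.4 kb. Among the energy genes of muscle, MB, which stores oxygen, was the 1 of 16 past 2-fold. MB read 6.24, 9.38, 10.46, 5.43 and 8.75, highest with LY294002, and its second probe gave -1.46.

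Cardiac transcription factors were mixed, with a median of 0.00 over 26 detected. Of 20 detected on both arrays, IRX5 and HEY2 were lower and SMYD1, a muscle histone methyltransferase, was higher by 1.01. IRX5, an Iroquois homeobox gene, read 8.79 with LY294002 and 6.91 with both inhibitors, and a second probe gave -1.02. HEY2, which marks compact ventricular muscle, read 7.07, 8.28, 8.02, 7.04 and 6.54, lowest with both inhibitors. NKX2-5, the core cardiac homeobox gene, differed by -0.40 and ISL1, of the second heart field, by 0.74. PROX1 and ZFPM2, regulators of heart muscle growth and GATA4 activity, were detected only with both inhibitors, at least 3.08-fold and at least 2.01-fold higher. Of the ventricular list 1 of 9 was lower (HEY2), with IRX4 at -0.64 and HAND1 at -0.59. Of the atrial list none (0) of 5 passed 2-fold, and KCNA5, an atrial potassium channel, was detected only with LY294002, at least 1.45-fold lower. SLN also belongs to this list, and NPPA, the atrial natriuretic peptide gene, was detected only with both inhibitors, at least 1.56-fold higher.

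Metabolic genes differed little as groups. Of 37 oxidative and fatty acid genes detected on both arrays 1 was higher, PPARGC1A, the coactivator of mitochondrial biogenesis, at 5.85, 8.81, 7.94, 5.64 and 9.53 (list median 0.14). Of 26 genes of glycolysis and the hypoxia response, 2 were lower and 1 was higher (median -0.12). SLC2A1, the glucose transporter GLUT1, read 9.85, 9.17, 9.18, 10.16 and 6.84, so only the array with both inhibitors stood apart. The collagen hydroxylase gene P4HA2 read 7.46 with LY294002 and 5.96 with both inhibitors, while a second probe gave -0.28, and PDK1, which holds back pyruvate oxidation, was higher by 1.02. In the serine and amino acid stress list 2 of 30 were lower, the transporter SLC7A5 by 1.55 and PHGDH, the first enzyme of serine synthesis, by 1.23, and 1 was higher, CEBPG, by 1.05. Of 26 cholesterol and lipid genes 2 were higher, SC5D by 1.09 and ELOVL6 by 1.05, which is near the 5.92% higher over all genes. A second probe for ELOVL6 gave 0.70. The 34 ribosomal protein genes had a median of -0.13 with RPL37 alone past 2-fold, by 1.04.

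Adhesion genes differed less than the matrix genes. Of 24 detected laminin, integrin and adhesion genes, 3 of 21 were higher and none (0) was lower, beside 5.92% higher over all genes. A further 3 were detected only with both inhibitors. The median was 0.46 over the 24 and 0.31 over the 21. ITGB1, the common beta chain of integrins, read 10.92 with LY294002 and 12.19 with both inhibitors, ITGAV, an alpha chain, 8.70 and 9.93, and CDH2, N-cadherin, 11.22 and 12.44. A second probe for ITGB1 gave 0.53. ITGA3, another alpha chain, was on the other side, at -0.99. The LY294002 array was the lowest of the 5 for 14 of these 24 genes.

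The largest differences outside these groups had other functions. Downwards, NHERF1, a scaffold below the membrane, led with 11.11, 8.92, 9.70, 11.26 and 5.50, 18.4-fold lower with both inhibitors than with LY294002. SBSPON, a matrix protein with a thrombospondin domain, was lower by 3.28 and BASP1, a membrane-associated protein of growing neurites, by 2.52. PLAT, tissue plasminogen activator, and PCDH18, a protocadherin, were detected with LY294002 only, at least 5.29-fold and at least 5.17-fold lower. All 15 of the largest lower genes read lowest of the 5 arrays with both inhibitors. ZFP42, also known as REX1 and a member of the pluripotency list given above, read between 7.76 and 8.52 on the other 4 arrays. It was not detected with both inhibitors, at least 4.92-fold lower.

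Upwards, KIF1B, a kinesin that moves mitochondria and vesicles, read 7.43 in the control, 8.95 with IWP2, 6.56 with LY294002, 8.80 with insulin and 9.49 with both inhibitors, a difference of 2.94. LMO3, a LIM-only cofactor, read 5.67, 8.81, 6.64, 5.66 and 9.49, high on the 2 arrays with IWP2. A2M, a protease inhibitor, read 9.11, 10.44, 6.93, 9.56 and 9.46, low with LY294002 alone. Of the others, JARID2, a partner of Polycomb complex PRC2, was higher by 2.18, BCOR, of a PRC1 complex, by 2.08, YEATS4, a reader of histone acetylation, by 1.97, DYNC1H1, the dynein heavy chain, by 1.90 and PAFAH1B1, a dynein regulator, by 1.96. For 12 of the 15 largest higher genes the LY294002 array was the lowest of the 5, and for 10 the array with both inhibitors was the highest. The transporter gene SLC7A2 and the adhesion receptor gene ADGRL3 had the largest bounds upwards, at least 7.19-fold and at least 4.80-fold.

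The higher genes were long. The median genomic span, from the RefSeq start to end of a gene, was 76.1 kb for the higher genes, 19.04 kb for the lower genes and 27.9 kb for all genes detected on both arrays. With these genes ordered by span and split into 4 bins of 1922 or 1923, the share that was higher ran 2.18%, 2.76%, 5.62% and 13.1% from the shortest to the longest bin, and the share that was lower ran 6.24%, 4.37%, 4.06% and 2.81%. The median difference ran from -0.20 to 0.27. The insulin minus control difference showed no such spread (-0.04 to -0.02), the IWP2 minus control difference ran the same way from -0.01 to 0.17, and the LY294002 minus control difference ran the opposite way from 0.21 to -0.05. The last comparison shares its LY294002 array with the one described here. Within the lists, the 15 lower mitosis genes had a median span of 11.4 kb and the 16 within 2-fold 54.8 kb, whereas the 3 higher adhesion genes had 90.8 kb and the 18 within 2-fold 143.3 kb. The part of gene span, or of a property of the RNA that goes with it, in these differences was not tested.

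**Figure D3:**
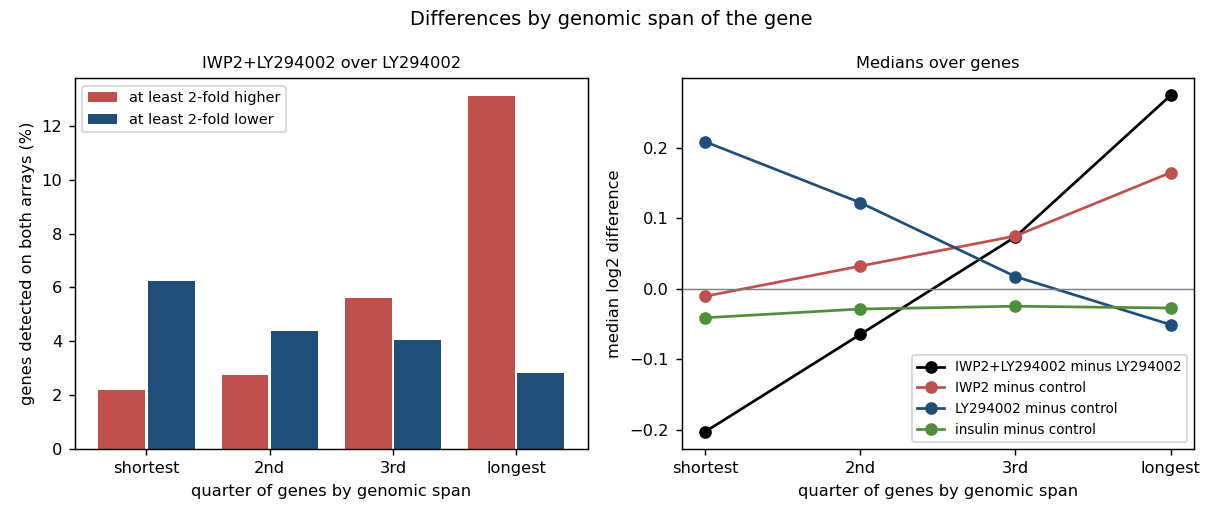
Genes detected on both arrays in 4 bins by genomic span: left, the percentage at least 2-fold higher or lower with both inhibitors than with LY294002; right, the median log2 difference of 4 comparisons, with no error because each treatment has 1 array. The higher share reaches 13.1% in the longest bin, and the median of the comparison with both inhibitors runs from -0.20 to 0.27 while that of insulin stays between -0.04 and -0.02.

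The difference that IWP2 made in the presence of LY294002 was set beside the difference it made in basal medium (IWP2 minus control), which uses none of the same arrays. For the 7271 genes with detected signal on these 4 arrays, the 2 differences had a Pearson correlation of 0.339 and a Spearman correlation of 0.318, across genes, which are not independent replicates and share a normalization. Among these genes 572 passed 2-fold upwards and 455 downwards without LY294002. With it there were 422 and 330. The 94 genes higher in both settings were 22.3% of those higher with LY294002 and 16.4% of those higher without it. The 86 genes lower in both were 26.1% and 18.9%. Over all genes detected on the 2 arrays, IWP2 in basal medium gave 6.94% higher and 7.7% lower.

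The 10 genes whose difference was furthest below its value in basal medium included the heart and muscle genes MB, IRX4, NKX2-5, WNT2, CKMT2, ENO3, CKM and HSPB7. NKX2-5 differed by 3.50 between IWP2 and control and by -0.40 between both inhibitors and LY294002, IRX4 by 3.29 and -0.64, and the muscle creatine kinase gene CKM by 3.36 and -0.17. In each the LY294002 array already stood near the IWP2 array: NKX2-5 read 6.37 in the control, 9.87 with IWP2, 9.58 with LY294002 and 9.18 with both. The sarcomere list had a median of 2.13 without LY294002 and 0.37 with it. In the other direction, LHX2, a LIM homeobox gene, differed by -3.89 and -0.85, and TGFBR3, a co-receptor of TGF-beta, by -3.14 and -0.05. These genes read low on all 3 inhibitor arrays.

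Other groups kept a difference with LY294002, in some lists larger and in the liver list smaller than without it. The matrix list had medians of -1.20 without and -1.24 with LY294002, and the liver list -2.12 and -1.64. With both inhibitors 11 of the 32 matrix genes and 9 of the 19 liver genes detected with LY294002 or both were undetected. The lowest detectable signals thus limit the size of the medians with LY294002. The mitosis list had -0.37 without and -1.02 with it, and the DNA replication list -0.23 and -0.64. For CDC20 the 2 differences were -0.72 and -2.14, for DKK1 0.14 and -2.58 and for SLC2A1 -0.68 and -2.34. MB (3.14 and -1.71) and WNT2 (1.93 and -1.88) changed side, and so did ERH, a small nuclear protein gene, at -1.05 and 2.43. With 1 array a treatment, whether any of these pairs of differences differ beyond the error of an array was not tested.

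**Figure D4:**
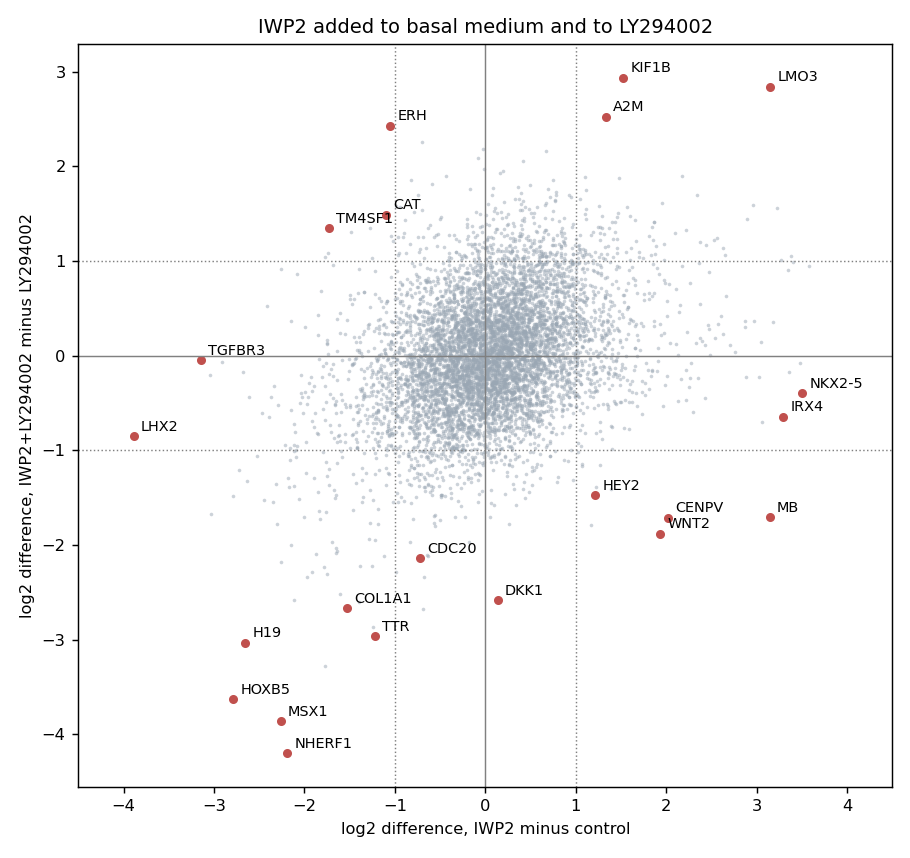
Each point is 1 of 7271 genes detected on 4 arrays, with the log2 difference IWP2 minus control on the horizontal axis and both inhibitors minus LY294002 on the vertical axis; dotted lines mark 2-fold and named genes are in red. MSX1, HOXB5 and H19 are low on both axes, NKX2-5 and IRX4 lie far right near a vertical value of 0, and MB and WNT2 lie right and low.

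Second probes gave a technical check within the arrays. Of the 455 higher genes 97 had another detected probe, which had the same sign in 86 (88.7%), passed 2-fold in 20 (20.6%) and had a median of 0.64. Of the 336 lower genes 50 had one, with the same sign in 38 (76.0%), 18 past 2-fold (36.0%) and a median of -0.57.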

How the data were processed

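Total RNA of the 5 cultures was hybridised to Illumina expression BeadChips, per the labels' protocols. The authors deposited a scanner table with 47299 probes, whose columns are, per the file headers, non-normalized intensities and detection p-values. The lowest intensity of each array, 81.3 or more, shows that background was not subtracted. They also deposited a table of log2 values. No source used here gives its processing. Its columns share nearly 1 distribution, as quantile normalization gives, and its background reduction and centring stay unknown. It served as an alternative. Intensities were background-corrected with normexp, quantile-normalized over the 5 arrays and put on the log2 scale with an offset of 16 (neqc, limma 3.58.1, R 4.3.3). The rest used Python 3.11.15, numpy 2.4.6, pandas 2.3.3 and matplotlib 3.10.9. Probes were named from the platform annotation: 30106 had 1 gene symbol, 8 had several and 17185 none, and 30067 of the named probes matched RefSeq by gene ID, which updated their symbols. A gene is represented by its probe with the highest mean over the 5 arrays.

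A gene counted as higher or lower at a log2 difference of 1 or more in size with detection (p under 0.01) on both arrays. A gene detected on 1 array has a bound: its bright value was set against its own value on the other array or that array's lowest detected signal, whichever was higher. A list median is taken over the members detected on at least 1 of the 2 arrays. A member detected on only 1 array entered through that array, so the sign of its difference is largely set by this filter. The number of arrays, 1 a group, limits the precision, and no test was made. A pair of arrays was simulated from the LY294002 array, with measurement noise only and no variation between cultures. The changed probes were drawn from detected probes with signals clear of background. All 50 made 4-fold higher passed 2-fold (100%), as did 94.9% of the 39 made 4-fold lower that stayed detected. Of 14745 unchanged probes 0.00678% passed it. These shares check the processing and say nothing about how far cultures given the same treatment would differ.

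The rule for named genes took, each way, the 15 largest differences measured on both arrays and the 10 largest bounds, up to 6 members of each of 45 lists (1086 genes) by size, all detected members of the WNT lists, and 10 genes each way for the difference between IWP2 with and without LY294002. A named gene whose other detected probe moved the other way by at least 0.58 was to be given with that value, and none did. Placeholder symbols, Y-linked genes, XIST and TNNT2 were left out. TNNT2 was not analysed here. The comparison, its members and the lists were chosen with earlier results of these data known. Alternatives were no background correction, scaling to the 75th percentile, cyclic loess, the 2 arrays normalized alone, the deposited log2 table, detection p under 0.05, no detection filter, the median over probes, an offset of 50, a 1.5-fold threshold and members at their bounds.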

Additional observations from a re-analysis of the deposited data

Results flagged for a closer look

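In 21 genes IWP2 gave a difference past 2-fold one way in basal medium and past 2-fold the other way in the presence of LY294002. With 1 array a treatment the difference between these pairs was not tested. The values are the log2 difference of both inhibitors minus LY294002, then of IWP2 minus control. Lower with LY294002 present and higher without it were ACYP1 (-1.16, 1.27), CENPV (-1.71, 2.02), CRTAP (-1.79, 1.17), EXTL3 (-1.17, 1.07), FITM1 (-1.41, 1.39), HEY2 (-1.48, 1.21), MB (-1.71, 3.14), NNAT (-1.39, 1.22), SNURF (-1.15, 1.07), TMEM147 (-1.01, 1.02) and WNT2 (-1.88, 1.93). Higher with LY294002 present and lower without it were ARHGEF3 (1.35, -1.28), CAT (1.49, -1.10), EML1 (1.30, -1.48), ERH (2.43, -1.05), FREM1 (1.04, -1.77), KLHL5 (1.27, -1.04), MTMR3 (1.03, -1.26), POU4F1 (1.08, -1.74), RERG (1.21, -1.02) and TM4SF1 (1.35, -1.73). HEY2, MB and WNT2, all from the heart lists, thus lay on the same side, and so did the imprinted genes NNAT and SNURF. Many of the 21 were named for this opposition, after their values were seen. A second detected probe for CENPV gave -1.04 with LY294002 present, and one for CAT gave 0.02.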

How the results depend on the processing

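No paired analysis was possible because each group has 1 array. The counts of 455 higher and 336 lower genes were within 1.5 times the reported ones under cyclic loess, with the 2 arrays normalized alone, with the deposited log2 table, with detection p under 0.05 and with the median over probes. They were 108 and 100 with no background correction, 815 and 179 with 75th percentile scaling, 788 and 605 with no detection filter, 236 and 177 with an offset of 50, and 1315 and 1150 at 1.5-fold. Detection p under 0.05 raised the genes detected only with both inhibitors from 942 to 1506. With no background correction the list medians were -0.84 for liver, -0.55 for matrix and -0.38 for DNA replication. With no detection filter they were -0.94 for liver and -0.77 for matrix, and the smooth muscle and retinoic acid medians turned to 0.0511 and 0.0059. The sarcomere median was 0.66 with 75th percentile scaling. For these shifts the cause was not tested, other than that the loose filter and threshold count more genes by construction. The 96 named genes past 2-fold kept their sign in all 864 alternative values. These genes were picked for large differences on the same 2 arrays that the alternatives reprocess. A turned sign was therefore unlikely from the start, and the count is no support for the calls. The correlation of IWP2 with and without LY294002 moved little in the 8 alternatives run for it (0.302 to 0.359); normalizing 2 arrays alone was not run for it, since it needs 4. Values near the lowest detected signals, 5.49 with LY294002 and 5.46 with both inhibitors, are the least certain.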

Other observations

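Further lists gave these values. Of 16 detected metallothionein and glutathione transferase genes 1 of 14 was lower, with a median of -0.29. Of 16 small heat shock and chaperone genes 2 of 15 were higher, HSPH1, a co-chaperone of HSP70, by 1.24 and HSPB3, a small heat shock protein of muscle, by 1.14, while HSPB7, which is abundant in heart, differed by -0.23. Among splicing regulators, QKI and CELF2 were detected only with both inhibitors, at least 1.42-fold and at least 1.32-fold higher, and PTBP1, a repressor of muscle exons, was lower by 0.75. EOMES, a T-box factor of the primitive streak, was detected only with both inhibitors, at least 2.20-fold higher, at 6.62. SOX2 too was detected only there, at 5.94, which is at least 1.37-fold higher. The 17185 probes without a gene symbol in the annotation had 2138 detected on both arrays, of which 60 (2.81%) were at least 2-fold higher and 85 (3.98%) lower, while the named probes had 558 higher and 396 lower of 9425.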
